A study of Arabidopsis thaliana with 8 samples.

Results

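The transcripts described here stood higher in ago1-27 than in the wild type, and lower in se-1 plants that carry a miR156 transgene than in se-1 itself. They were read from Affymetrix ATH1 arrays of vegetative shoot apices of Arabidopsis thaliana, taken from 20-day-old plants in short days. Each of 4 genotypes had 2 arrays: Col-0, the wild-type accession; ago1-27, a weak allele of ARGONAUTE1; se-1, an allele of SERRATE (SE); and se-1 p35S::MIR156, which carries se-1 and a miR156 precursor driven by the viral 35S promoter. The last is called the transgenic line, and its transgene was present only in the se-1 background, and the labels do not say how many transgenic lines were used. The labels also do not say whether the plants behind replicate arrays were separate, and the p-values therefore cover the spread between arrays alone, which may be technical.

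The members were chosen by these same signals. A probe set, the group of short probes that reports 1 transcript, was taken where its mean over the 8 arrays exceeded 5 on the scale log2(signal + 16) and its difference of group means met both parts of the rule. The difference ago1-27 minus Col-0 had to be at least 0.6, with both ago1-27 arrays above both Col-0 arrays, and se-1 p35S::MIR156 minus se-1 had to be at most -0.4. Of 22746 probe sets other than controls, 16466 exceeded the minimum mean and 171 met the rule. After 8 of these were left out by name, among them COR15A, COR15B, AGL42 and CYP71B22, 163 remained. Of the 163, 83 were paired with 1 gene each, 2 with several genes, and 78 had no gene in the annotation table used here. Differences are given on this log2 scale throughout, which understates the fold change of dim probe sets.

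AGO1 is the protein that binds microRNAs and uses them to silence target transcripts, and SE is a zinc-finger protein that helps to cut microRNAs from their precursors. miR156 is abundant in young plants and silences SPL transcription factors, and its decline allows the change from juvenile to adult growth. Plants with weak ago1 or se function have less microRNA activity, while a miR156 transgene adds to that of 1 microRNA. Neither miR156 nor any other mature microRNA was measured on these arrays. None of the 11 SPL genes that miR156 targets was paired alone with a probe set in the annotation table used here. That table lists 14016 of the 22810 probe sets, so SPL transcripts may be among those without a listed gene.

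The ago1-27 part and the transgene part of the rule rest on different arrays, so their overlap can be counted. Among the 663 probe sets that met the ago1-27 part, 171 (25.8%) lay at or below -0.4 in se-1 p35S::MIR156 minus se-1, and 41 (6.18%) at or above 0.4. Among the 614 that met the mirror image of that part, with ago1-27 as far below Col-0, the shares were reversed: 40 (6.51%) were at or below -0.4 and 191 (31.1%) at or above 0.4. Over all 16466 probe sets the shares were 9.24% and 6.64%. Across these 16466 probe sets the pair of differences had a Pearson r of -0.30 and a Spearman rho of -0.28. This describes the arrays of 4 genotypes, and probe sets on the same arrays are not independent of each other.

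**Figure D1:**
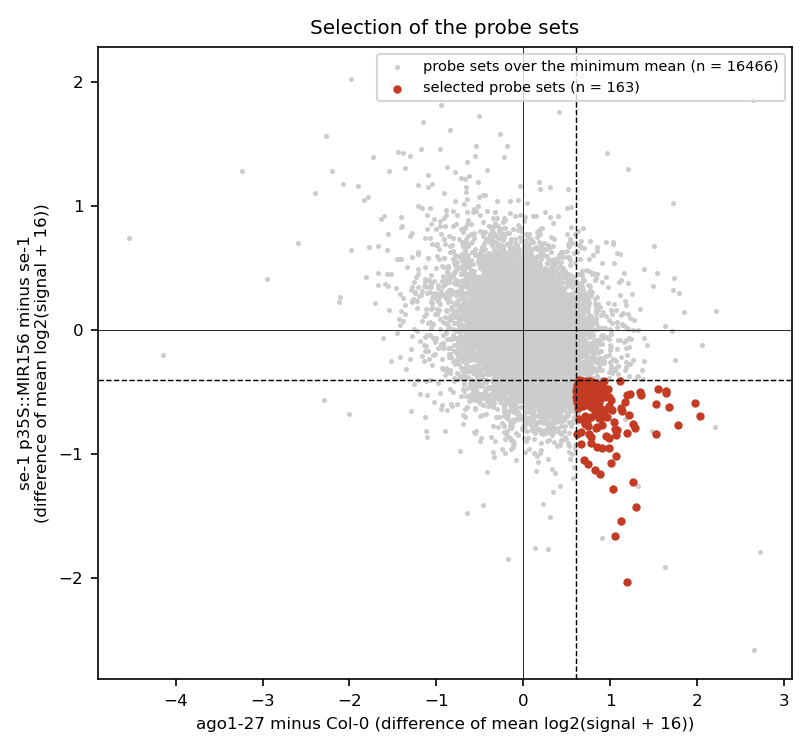
Each point is a probe set, with the difference ago1-27 minus Col-0 on the x axis and se-1 p35S::MIR156 minus se-1 on the y axis, both as differences of mean log2(signal + 16). Dashed lines mark 0.6 and -0.4; the 163 chosen probe sets are red and the 16466 probe sets over the minimum mean are grey, including those in the same corner whose arrays overlapped or that were left out by name.

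Chosen probe sets were mostly moderate in size and in level. The differences that chose them ran from 0.60 to 2.03 with a median of 0.80 for ago1-27 minus Col-0, and from -2.03 to -0.40 with a median of -0.58 for se-1 p35S::MIR156 minus se-1. Their median level over 8 arrays was 6.60, against 7.39 for all probe sets over the minimum mean. Background was read from 27 probe sets for bacterial genes that were not spiked in, whose highest signal was between 14.2 and 34.1 per array. Of the 163, 112 (68.7%) lay above it on all 8 arrays, against 83.2% of all probe sets over the minimum mean. In Col-0 both arrays lay within background for 19 members, in se-1 p35S::MIR156 for 13, in se-1 for 3 and in ago1-27 for 1.

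Near the edges of the rule, AT1G21680, AT1G22890 and AT1G13920 lay just inside the ago1-27 threshold at 0.602, 0.607 and 0.613, and the nearest excluded probe sets had 0.598, 0.598 and 0.592. For the transgene, the F-box gene AT5G56380 at -0.403 and the receptor-like kinase gene AT2G02780 at -0.408 were just inside, and AT3G20270, AT3G03020 and TRM31 just outside at -0.399, -0.397 and -0.397. WNK9 and AT4G16745 passed the minimum level at 5.01 and 5.03, and AT5G14650 missed it at 4.999.

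Averaged over all 163 members, log2(signal + 16) was 6.35 and 6.46 on the Col-0 arrays, 7.23 and 7.35 on those of ago1-27, 6.96 and 7.0 on those of se-1, and 6.34 and 6.33 on those of se-1 p35S::MIR156. The 4 arrays of ago1-27 and se-1 were thus the high ones, and the transgenic line stood at the wild-type level. These means restate the choice for the pairs that the rule compared. The se-1 mean was above the Col-0 mean for 152 members, by a median of 0.58, and both se-1 arrays were above both Col-0 arrays for 121. Among all tested probe sets 23% had such non-overlapping se-1 arrays, but a rule that asks for low Col-0 and high se-1 values favours this order, and nothing is read from it. The transgenic arrays were both below the se-1 arrays for 136 members, where 24.7% of all tested probe sets had that order. For 89 members all 4 arrays of ago1-27 and se-1 were above all 4 arrays of Col-0 and se-1 p35S::MIR156, a pattern that 3.83% of all tested probe sets had and that the rule also favours. These non-overlap counts are over all 163 members. Over the 151 members that were tested they were, in the same order, 113, 127 and 85.

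**Figure D2:**
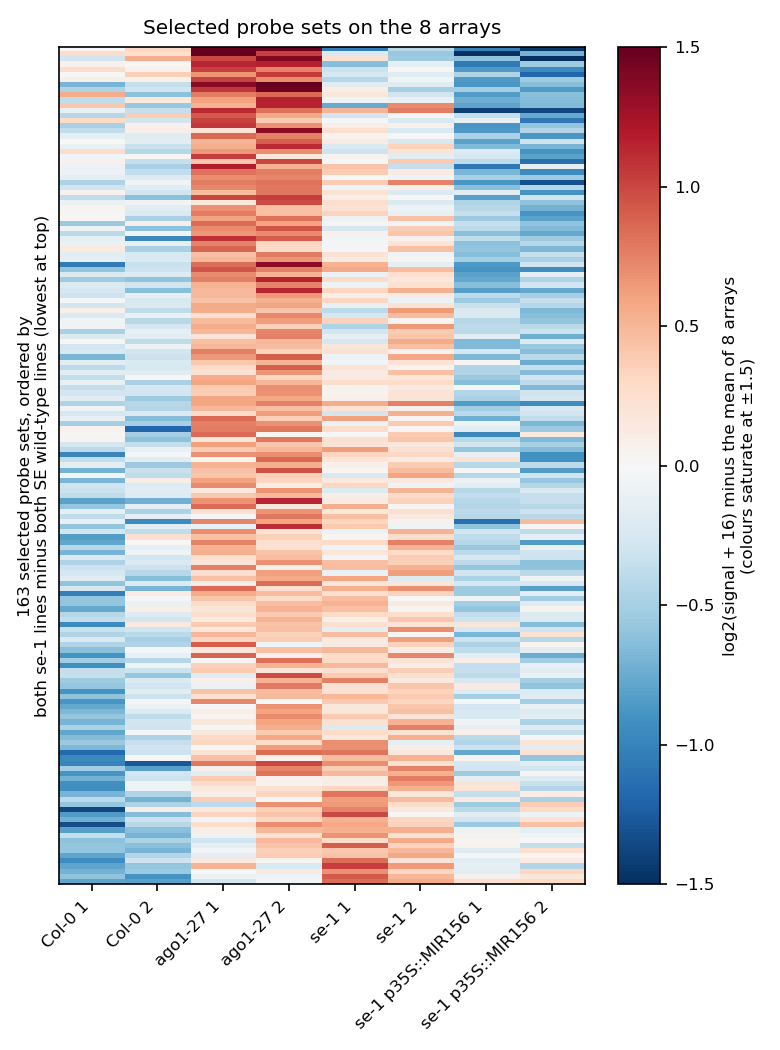
Rows are the 163 chosen probe sets and columns the 8 arrays, with colour for log2(signal + 16) minus the row's mean over 8 arrays. Rows are ordered by the mean of both se-1 lines minus the mean of Col-0 and ago1-27; at the top only the ago1-27 arrays are high, and toward the bottom the se-1 arrays are as high or higher.

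Several technical measures also differed between the arrays. The ratio of 3' to 5' actin control signal, which rises as RNA is degraded or labelled incompletely, was 4.83 and 4.40 in ago1-27 and between 2.81 and 4.22 on the other 6 arrays, with 2.97 and 4.22 in se-1. The mean log2 signal of the 18 hybridization spike-in probe sets was 9.40 and 9.55 in ago1-27, 9.23 and 9.42 in se-1, 9.38 and 9.19 in Col-0, and 9.15 and 9.20 in se-1 p35S::MIR156. Their part in the members' pattern was not tested. PYK10, a beta-glucosidase gene that is strongly expressed in roots and the only listed root marker of 6, ran the other way, with signals of 1648 and 1678 in Col-0, 211 and 123 in ago1-27, 639 and 933 in se-1, and 2337 and 1545 with the transgene. The summed signal of the mature leaf markers LHCB4.1, RCA and PRK, 3 of 5 in that list, was 8156 and 10148 in ago1-27. It was 6970 and 7376 in the wild type, 6353 and 6374 in se-1 and 6567 and 7764 with the transgene. The sum was thus highest in ago1-27 and not raised in se-1, but none of the 3 genes was called in ago1-27 against Col-0. Their differences there were 0.63 for RCA, 0.38 for PRK and 0.19 for LHCB4.1 (limma adjusted p = 0.113, 0.342 and 0.651). Of 6 shoot meristem markers 1 had a listed probe set, that of CLV3, with a signal of 25.7 or less on each array, so the labelled apex could not be checked against this list. In whole apices, a change in the share of a cell type and a change in RNA per cell cannot be told apart.

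Among the genes of known family, 6 encode DNA-binding proteins, and 3 of these encode proteins with the plant-specific B3 DNA-binding domain: AT4G34400, AT3G06160 and AT3G06220. AT4G34400 gave signals of 70.7 and 98.3 in Col-0, 187 and 194 in ago1-27, 139 and 185 in se-1, and 49.1 and 31.8 with the transgene. Its ago1-27 and se-1 arrays were all above the Col-0 arrays, and the transgenic arrays were below every other array. The differences were 1.05 for ago1-27 minus Col-0 and -1.66 for the transgene in se-1, the largest fall among members with a listed gene.

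AT3G06220 gave 190 and 222 in Col-0, 340 and 331 in ago1-27, 269 and 327 in se-1, and 144 and 156 with the transgene. AT3G06160 was dimmer, with 47.0 and 46.9 in Col-0, 117 and 67.9 in ago1-27, 92.6 and 97.5 in se-1, and 37.0 and 36.1 with the transgene. In both genes, as in AT4G34400, every transgenic array was below every Col-0 array.

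The other DNA-binding proteins were the basic helix-loop-helix protein AT4G01460, the MYB-related protein AT3G13040 and the AP2/ERF-type protein AT4G16750. AT4G01460 gave 89.5 and 65.4 in Col-0, 156 and 146 in ago1-27, 121 and 122 in se-1, and 57.5 and 71.1 with the transgene. Its high and low genotypes did not overlap. AT4G16750 (chosen after its values were seen, for its family) differed in order, with 67.3 and 60.8 in Col-0, 104 and 143 in ago1-27, 149 and 159 in se-1 and 92.5 and 132 with the transgene, so that the transgenic arrays stayed above those of Col-0.

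**Figure D3:**
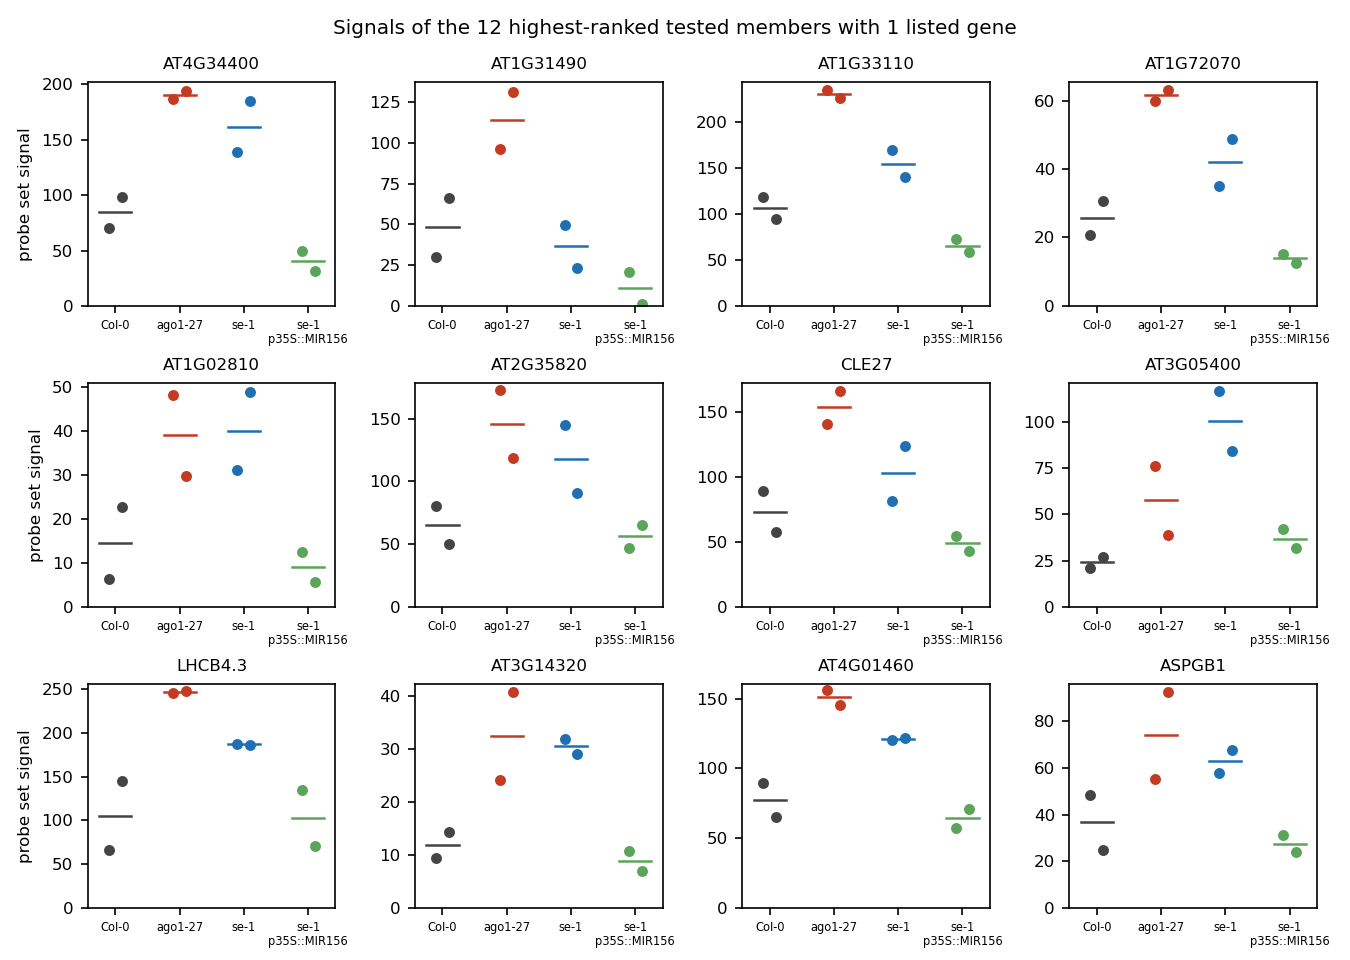
Probe set signals on a linear axis from 0 for the 12 members with 1 listed gene, of those tested, whose smaller rule difference was largest. Points are single arrays and bars the mean of 2 arrays for each genotype; in AT4G34400, AT1G33110 and AT1G72070 the transgenic arrays lie below all others, while AT3G05400 is highest in se-1.

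The chosen genes of one stretch of chromosome 3 were close neighbours. In the TAIR10.1 assembly AT3G06130, AT3G06160 and AT3G06220 lie in that order within 50 kb, with 6 other genes of a listed probe set between them. AT3G06130, a gene for a protein with a heavy-metal-binding domain, gave 272 and 269 in Col-0, 363 and 495 in ago1-27, 338 and 426 in se-1 and 222 and 190 with the transgene. The 6 genes between the chosen ones did not share the pattern: their differences lay between -0.31 and 0.09 for ago1-27 minus Col-0 and between -0.27 and 0.29 for the transgene in se-1. AT3G06160 and AT3G06220 each overlap a neighbour in that assembly, AT3G06150 and AT3G06210, whose values were 0.03 and 0.09 for ago1-27 and 0.09 and -0.27 for the transgene.

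The only other pairs of chosen genes within 50 kb were AT1G72030 with AT1G72070 and AT4G16745 with AT4G16750. AT1G72070 encodes a protein of the DnaJ co-chaperone type, and gave 20.7 and 30.8 in Col-0, 60.0 and 63.1 in ago1-27, 35.1 and 48.9 in se-1 and 15.3 and 12.6 with the transgene, where 1 array was within background. AT1G72060, the gene between them, overlaps AT1G72070 in the assembly and had differences of 0.13 for ago1-27 and -0.52 for the transgene. No gene with a listed probe set lay between AT4G16745 and AT4G16750, and AT4G16745 was within background on both Col-0 and both transgenic arrays. The 82 chosen genes matched to the reference table fell on all chromosomes, 21 on chromosome 1, 13 on 2, 19 on 3, 12 on 4 and 17 on 5.

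**Figure D4:**
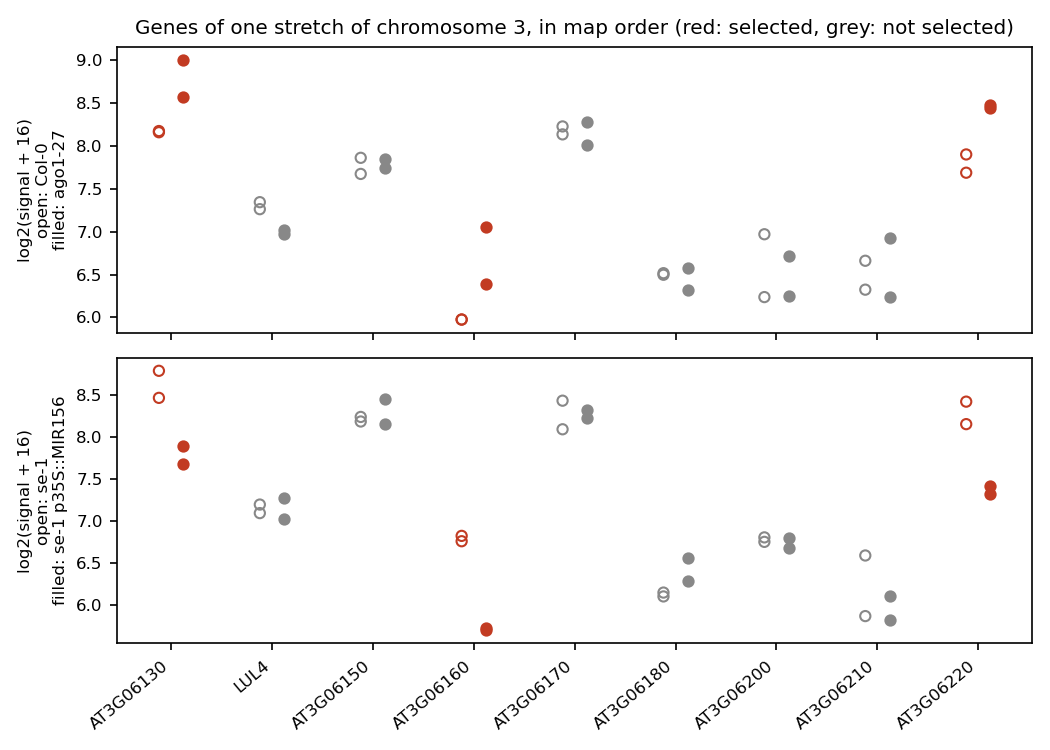
The y axes give log2(signal + 16) of each array for 9 neighbouring genes of chromosome 3 in map order, above for Col-0 (open) and ago1-27 (filled) and below for se-1 (open) and se-1 p35S::MIR156 (filled). The 3 chosen genes, in red, separate in both panels, and the 6 others, in grey, differ by at most 0.31 in either.

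Membrane transport proteins numbered 7, of which AT1G33110 and AT5G52450 belong to the MATE family of efflux carriers. AT1G33110 gave 119 and 95.1 in Col-0, 235 and 227 in ago1-27, 170 and 140 in se-1, and 72.6 and 58.4 with the transgene. All 4 genotypes separated, with ago1-27 highest and the transgenic line lowest. AT3G05400, a sugar transporter of the major facilitator superfamily, was instead highest in se-1, at 116 and 84.3, with 21.2 and 27.2 in Col-0, 76.1 and 39.0 in ago1-27 and 42.1 and 31.7 with the transgene. The vacuolar sugar transporter gene TMT3 was dim, with 4.34 and 29.0 in Col-0 and 45.1 and 41.0 in ago1-27, 32.9 and 36.3 in se-1 and 12.5 and 21.1 with the transgene. The nucleotide-sugar transporter-like gene AT5G55950 was within background on both Col-0 arrays and was too dim to be tested.

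Signalling proteins numbered 9, and their differences ran from 0.63 to 1.05 for ago1-27 and from -0.86 to -0.41 for the transgene. CLE27, which encodes a secreted peptide of the CLAVATA3/ESR-related family, gave 88.9 and 57.7 in Col-0, 141 and 167 in ago1-27, 81.7 and 124 in se-1 and 54.7 and 42.9 with the transgene. Its se-1 arrays overlapped those of Col-0. The Aurora kinase gene AUR3, whose product acts on chromosomes in dividing cells, gave 157 and 131 in Col-0, 256 and 386 in ago1-27, 143 and 220 in se-1 and 101 and 98.4 with the transgene, again with overlap between se-1 and Col-0. AT4G36150, a disease resistance protein gene of the TIR-NBS-LRR class, gave 40.5 and 63.6 in Col-0, 86.7 and 101 in ago1-27, 106 and 78.2 in se-1 and 43.3 and 58.2 with the transgene. The receptor-like kinase gene AT4G29990 had 1 array within background in each of Col-0, ago1-27 and the transgenic line.

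Metabolic enzymes were the most numerous group, with 10 members. AT2G35820, assigned to ureidoglycolate breakdown in purine catabolism, gave 80.7 and 50.4 in Col-0, 173 and 118 in ago1-27, 145 and 90.7 in se-1 and 47.3 and 65.3 with the transgene. The asparaginase gene ASPGB1 gave 48.6 and 25 in Col-0, 55.4 and 92.8 in ago1-27, 58.0 and 67.6 in se-1 and 31.2 and 23.8 with the transgene. In both genes the 4 arrays of ago1-27 and se-1 were above the other 4. AT1G02810, of the pectin methylesterase family that modifies cell walls, was within background on both Col-0 and both transgenic arrays, and was at least 1.81-fold higher in ago1-27 than in Col-0 and at least 2.42-fold lower with the transgene than in se-1. Of the acyltransferase-family genes AT1G31490 and AT1G27620, the first gave 96.4 and 131 in ago1-27 but 49.9 and 23.1 in se-1, and the second was too dim to be tested. AT1G07440 of the short-chain dehydrogenase family, chosen after its values were seen, gave 86.4 and 70.8 in Col-0, 253 and 258 in ago1-27, 126 and 117 in se-1 and 60.2 and 93.1 with the transgene.

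Genes of the chloroplast and of starch metabolism were LHCB4.3, CcdA and QQS. LHCB4.3, a minor light-harvesting protein of photosystem II, gave 65.8 and 145 in Col-0, 246 and 248 in ago1-27, 188 and 186 in se-1 and 135 and 70.8 with the transgene, a wide spread between replicates in the 2 low genotypes. QQS, a gene that affects starch content, gave 154 and 59.0 in Col-0, 180 and 192 in ago1-27, 113 and 79.2 in se-1 and 48.6 and 58.8 with the transgene, and its se-1 arrays lay within the range of Col-0. CcdA, which carries reducing power into the thylakoid for cytochrome assembly, gave 268 and 250 in Col-0, 510 and 440 in ago1-27, 381 and 370 in se-1 and 262 and 226 with the transgene (chosen after its values were seen).

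Protein turnover was represented by 6 genes and secreted defence-type proteins by 4. Among the first, the F-box gene AT1G67340 gave 158 and 216 in Col-0, 304 and 410 in ago1-27, 316 and 389 in se-1 and 257 and 188 with the transgene. The RING finger gene AT3G14320 was within background on both Col-0 and both transgenic arrays, and was at least 1.5-fold higher in ago1-27 and at least 1.89-fold lower with the transgene. Among the second, the chitinase gene CHI, chosen after its values were seen, gave 81.3 and 51.0 in Col-0, 152 and 182 in ago1-27, 69.5 and 117 in se-1 and 62.1 and 48.9 with the transgene. These role groups were formed after the members were known, cover 45 of the 83 genes, and were not tested as groups.

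Other high-ranking members without a group included AT5G62210, similar to the embryo-specific protein ATS3, which gave 91.5 and 160 in Col-0, 382 and 546 in ago1-27, 302 and 185 in se-1 and 106 and 165 with the transgene. It had the largest ago1-27 minus Col-0 difference, 1.78, of members with a listed gene. AT3G60520 gave 203 and 282 in Col-0, 576 and 353 in ago1-27, 464 and 316 in se-1 and 227 and 230 with the transgene, and AT3G29130 gave 58.6 and 46.3, 93.7 and 97.4, 80.4 and 119, and 54.8 and 49.9 in the same order. Both had no overlap between the high and the low genotypes. AT2G47720 and AT1G61450 had differences of 0.75 and 0.63 for ago1-27 and -0.84 and -0.63 for the transgene, each with overlap between se-1 and Col-0. P1R3 gave 29.9 and 28.1 in Col-0, 74.1 and 68.7 in ago1-27, 36.1 and 34.5 in se-1 and 20.1 and 11.5 with the transgene, where 1 array was within background.

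The members with no listed gene numbered 78, of which 72 were tested. Their differences ran from 0.61 to 2.03 for ago1-27, with a median of 0.84, and from -2.03 to -0.41 for the transgene, with a median of -0.55. In 49 of the 78 all 4 arrays of ago1-27 and se-1 were above the other 4, and in 39 of the 83 with 1 gene. This order was held by 3.83% of all tested probe sets, and the rule favours it. Probe set 249144_at, first by the smaller of its rule differences, gave 127 and 158 in Col-0, 398 and 348 in ago1-27, 303 and 282 in se-1, and 101 and 96.9 with the transgene. Probe set 250688_at, the next by that rank, was within background on both Col-0 and both transgenic arrays and too dim to be tested. It was at least 1.92-fold higher in ago1-27 and at least 1.69-fold lower with the transgene.

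A linear model over all 15922 tested probe sets (limma, two-sided, Benjamini-Hochberg adjusted p under 0.05 for a call) covered 151 of the 163 members, and the other 12 were too dim. In ago1-27 against Col-0, 35 of the 151 were called higher, where 0.754% of all tested probe sets were. In se-1 p35S::MIR156 against se-1, 6 were called lower, where 0.138% of all were. These counts come from the differences that chose the members and are given as a description. The 5 probe sets called in both were AT4G34400, AT1G33110, 249144_at and, chosen after their values were seen, 256175_at and 267639_at. The last gave 275 and 283 in Col-0, 588 and 664 in ago1-27, 576 and 660 in se-1 and 208 and 195 with the transgene. In 256175_at the signals were 161 and 135, 400 and 320, 257 and 311, and 56.1 and 58.2 in the same order, and the transgenic arrays were below all others. In se-1 against Col-0, which shares arrays with both parts of the rule, 16 members were called higher, beside 0.741% of all. In se-1 p35S::MIR156 against Col-0, which shares arrays too, 5 were called, 1 higher and 4 lower, beside 0.842% of all, 0.565% higher and 0.276% lower.

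A further difference was taken across the pairs that the rule compared: the mean of both se-1 lines minus the mean of both lines with wild-type SE, Col-0 and ago1-27. It uses the same 8 arrays, and its errors are uncorrelated with both rule differences only where the genotypes vary alike. Over all tested probe sets the replicate SD was larger in ago1-27 (0.288) than in Col-0 (0.235), which would lean chosen members below 0. It was larger in se-1 (0.250) than with the transgene (0.223), which would lean them above 0. Among the members themselves both orders were reversed. Their SD was 0.310 for ago1-27 against 0.330 for Col-0, while se-1 had 0.309 against 0.321 with the transgene. The direction of any lean is therefore not settled. The p-values of members in this comparison hold only where the genotypes vary alike, and unequal spread was not corrected for. The difference is 0 where se-1 stands as high as ago1-27 and the transgenic line as low as Col-0. A rise in ago1-27 with no match in se-1 lowers it, and so does a transgenic line below Col-0. Of the 151 tested members, 21 (13.9%) differed in this test, 3 higher and 18 lower in the se-1 lines. The count was 13 without replicate 1 of Col-0, 13 and 11 without replicates 1 and 2 of se-1 p35S::MIR156, and 11 when dim probe sets were kept. Among all tested probe sets 5.18% were called, 3.47% higher and 1.71% lower. The members' median was -0.18, against -0.01 over all tested probe sets. Below 0 were 106 of the 151, and 52.7% of all tested probe sets. Every member rises in ago1-27 and falls with the transgene by the rule. With se-1 level with Col-0, each of these lowers this difference. With the transgenic line level with Col-0, the fall from se-1 raises it instead. Whether the excess of lower calls comes from the choice was not tested.

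Lower in the se-1 lines was AT1G29270, with 381 and 326 in Col-0, 649 and 529 in ago1-27, 247 and 317 in se-1 and 166 and 153 with the transgene. Its difference was -1.05 (standard error 0.135, limma adjusted p = 0.000262), and all 4 se-1 arrays were below all 4 others. AT2G39210, a major facilitator superfamily gene, gave 56.2 and 53.9 in Col-0, 137 and 139 in ago1-27, 28.5 and 46.7 in se-1 and 17.3 and 31.5 with the transgene, a difference of -1.19 (standard error 0.183, limma adjusted p = 0.00117). AT5G05640 gave 158 and 205 in Col-0, 258 and 342 in ago1-27, 128 and 136 in se-1 and 111 and 59.7 with the transgene, a difference of -1.04 (standard error 0.172, limma adjusted p = 0.00203). In each of these genes se-1 lay below Col-0, so that the rise in ago1-27 had no counterpart in se-1.

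AT1G31490 (-1.32), AT1G72030 (-0.62), AUR3 (-0.62), AT1G33110 (-0.57), AT5G52450 (-0.53), AT3G17680 (-0.40) and QQS (-0.78) were also called lower, with limma adjusted p between 0.00931 and 0.0485. AT3G17680 was the brightest of these, with 844 and 787 in Col-0, 1318 and 1481 in ago1-27, 1021 and 954 in se-1 and 647 and 659 with the transgene. In AT3G17680 and AT1G33110 the se-1 arrays lay above those of Col-0 and the transgenic arrays below them, so their rise was not particular to ago1-27. Each of these 7 calls ended under some of the 16 or fewer alternative settings, with limma adjusted p up to 0.220. The other 8 lower calls were probe sets with no listed gene, with differences from -1.96 to -0.54. Of these, the call of 245448_at ended under 10 of 15 alternatives, that of 254038_at under 4 of 16 and that of 249754_at under 2 of 15 (chosen after their values were seen).

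Higher in the se-1 lines were AT3G48200, AT3G56830 and AT3G13040. AT3G48200 gave 146 and 143 in Col-0, 215 and 256 in ago1-27, 485 and 396 in se-1 and 316 and 328 with the transgene, a difference of 0.97 (standard error 0.130, limma adjusted p = 0.000364). AT3G56830 gave 132 and 105 in Col-0, 196 and 196 in ago1-27, 409 and 301 in se-1 and 221 and 238 with the transgene, a difference of 0.83 (standard error 0.141, limma adjusted p = 0.00233). The MYB-related gene AT3G13040 gave 137 and 153 in Col-0, 233 and 257 in ago1-27, 387 and 294 in se-1 and 206 and 293 with the transgene, a difference of 0.57 (standard error 0.147, limma adjusted p = 0.0339), and this call ended under 7 of 16 alternatives. In the first pair every array of the se-1 lines was above every array of Col-0 and ago1-27, and the transgene left the level above that of Col-0.

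The remaining tested members did not pass this test, which does not show that their difference was 0. For the B3-domain gene AT4G34400 it was -0.53 (standard error 0.163, limma adjusted p = 0.0781).

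**Figure D5:**
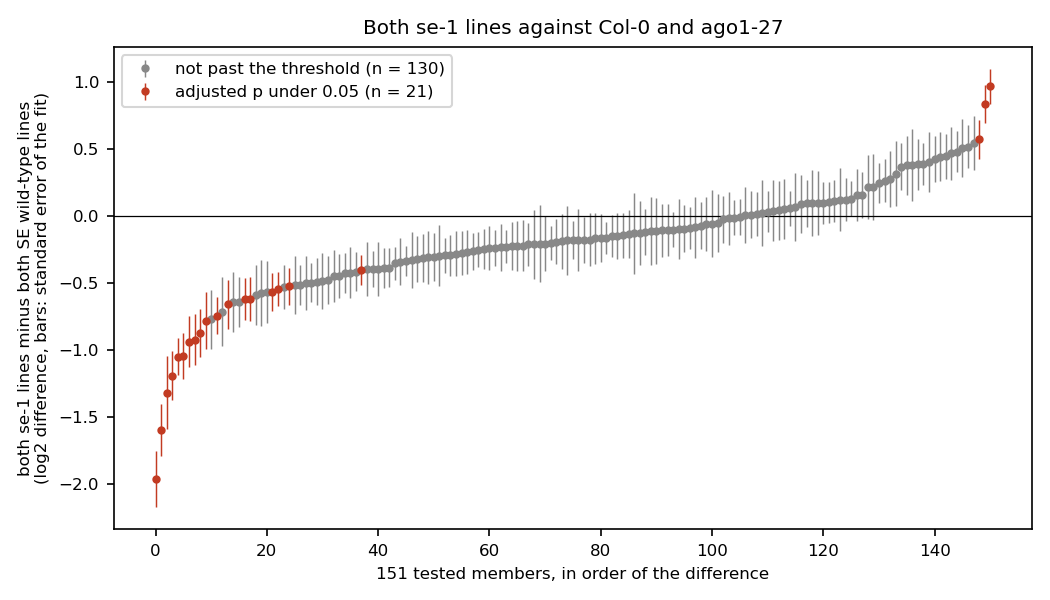
The y axis gives the mean of both se-1 lines minus the mean of Col-0 and ago1-27 on the log2(signal + 16) scale for the 151 tested members, in order on the x axis, with the standard error of the fit as bars. The 21 red points passed adjusted p under 0.05, 18 of them below 0 and 3 above.

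Of the 83 members with 1 listed gene, 0 were in the 15 gene lists used, which hold defence, hormone, cold, nutrient and marker genes and microRNA targets. The 78 members with no listed gene could not be matched to a list, and most list genes had no listed probe set (1 of 24 defence genes and 0 of 6 ethylene genes had one), so little could be checked. The lists' genes COR15A, COR15B and AGL42 met the rule and were among the 8 left out by name. Of the 4 cold genes tested, COR47 went the other way. Its differences were -0.84 for ago1-27 minus Col-0 (limma adjusted p = 0.0107) and 0.42 for the transgene in se-1, which was not called. LTI30 had 0.63 and -0.36, neither called. In the se-1 lines against Col-0 and ago1-27, COR47 was called higher and LTI30 lower (limma adjusted p = 7.7e-05 and 0.00154). Of 8 genes known to act downstream of SPL proteins, 3 were tested: AGL42, TRY and FD. In se-1 p35S::MIR156 minus se-1 AGL42, a MADS-box gene, had a difference of -1.67, given without a test since it met the rule. FD, a bZIP factor of flowering, had -1.02 (standard error 0.237, limma adjusted p = 0.105), and TRY, a trichome inhibitor, -0.52 (standard error 0.293, limma adjusted p = 0.633). Of 51 targets of other microRNAs 9 were tested, and LCR alone was called, higher in the se-1 lines than in Col-0 and ago1-27 (limma adjusted p = 0.00922).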

How the data were processed

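The deposited values are probe set signals, on a linear intensity scale, made by the authors with GCOS, per the submitters' processing notes. The 2% trimmed mean of each array was 200.02, so arrays had been scaled to a common level, and no further scaling was done. Signals became log2(signal + 16). Control probe sets (64 of 22810) were left out, the lowest 30% by mean over 8 arrays were dropped (below 5.13), and a model with 1 mean per genotype was fitted with limma 3.58.1 in R 4.3.3 (lmFit, eBayes with trend, Benjamini-Hochberg). The fit has 4 residual degrees of freedom, and 2 arrays per genotype limit its precision. It was also run on simulated data, with equal spread in each genotype and no selection of members. That run therefore cannot show how the fit behaves for chosen members or under unequal spread.

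The members and lists were chosen with earlier results of these data known. Genes came from the platform annotation, which pairs 13513 probe sets with 1 gene and 503 with several, and 82 member genes matched the TAIR10.1 gene table, used for names and map order. Named genes were the 30 with 1 listed gene whose smaller rule difference was largest, those called in the test of both se-1 lines, the first 2 without a gene, and those at the thresholds. Where both arrays of a genotype lay within background, folds are lower bounds against the background level. Other pseudocounts, quantile normalization, filters, variance models, a replicate block and leaving out each array were tried. Promoter sequences were not analysed here.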

Additional observations from a re-analysis of the deposited data

How the results depend on the processing

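Of all tested probe sets, 825 were called in both se-1 lines against Col-0 and ago1-27, and 443 when dim probe sets were kept. Leaving out 1 array gave 382 to 818, with 382 without replicate 1 of Col-0 and 453 and 422 without replicates 1 and 2 of se-1 p35S::MIR156. Among members, 21 were called, 11 with dim probe sets kept, and 11 to 19 with 1 array left out. The rule itself chose 163 probe sets, 48 with a pseudocount of 64, 210 with a pseudocount of 1 (126 of the 163) and 136 after quantile normalization (134 of the 163). Leaving out 1 array, it chose 171 to 246, of which 116 to 140 were among the 163, and 246 without replicate 1 of ago1-27. In these fits the lone array of a genotype is assumed to vary like the other genotypes. The cause of these shifts was not tested. The calls of AT1G29270, AT5G05640, AT3G48200 and AT3G56830 kept adjusted p under 0.05 in all 16 alternatives, and that of AT2G39210 in the 15 that could test it. Direction was followed one by one only for the 21 members called in this comparison and for AT4G34400, and it did not turn in any alternative that could test them.

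The members called higher in ago1-27 than in Col-0 numbered 35, and 12 with dim probe sets kept, 21 without a trend, and 12, 13 and 13 without replicate 1 of Col-0, replicate 2 of Col-0 and replicate 2 of ago1-27. Those called in se-1 p35S::MIR156 against se-1 numbered 6, and 3 with dim probe sets kept, 3 without replicate 2 of se-1 and 2 without replicate 2 of se-1 p35S::MIR156. The labels do not say whether same-numbered arrays were handled together. Deviations of same-numbered arrays correlated between -0.21 and 0.11 over the 6 pairs of genotypes. Weak correlations cannot decide this, since a shared step may affect few probe sets. The highest bacterial signal was higher on replicate 2 than on replicate 1 in every genotype. It was 17.14 and then 25.63 in Col-0, and 21.96 and then 34.06 in ago1-27. In se-1 it was 17.95 and then 30.22, and with the transgene 14.23 and then 18.33. With the replicate block, 825 probe sets and 20 members were called. Dim members limit what can be said: 51 of the 163 were within background on at least 1 array.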
